A study of Homo sapiens with 6 samples.

Results

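The 6 genes described here encode proteins of DNA mismatch repair: *MSH6*, *MSH3*, *PMS2*, *PMS1*, *MLH3* and *EXO1*. They were chosen by name, and each was found in 1 row of the table, 6 of 63677 genes in all. None of the 6 passed an adjusted p of 0.05 (edgeR) when *SNHG15* was depleted, where 5.36% of all genes tested did. *EXO1* and *PMS1* lay lower, and *MSH6* higher, in every *SNHG15* siRNA library than in any scramble library, and 28.8% of all genes tested lay on one side in this way. *MSH3* and *PMS2* had few counts, from 1 to 17 and from 3 to 20 in a library, where even a count of 0 allows up to 3 counts.

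RNA from LoVo, an established human colorectal cancer cell line, was sequenced from 3 libraries of cells transfected with a scramble siRNA and 3 of cells transfected with *SNHG15* siRNA. Per the paper's methods the latter was a combination of 2 siRNAs. Both groups were transfected at 25 nM for 48 h with a lipid reagent, and they carried no other labelled treatment. *SNHG15* is a long noncoding RNA, and the comparison asks which genes respond to its depletion. The study tested in other experiments how its level affects the response to fluorouracil.

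Mismatch repair removes base mismatches and small insertion or deletion loops left behind by DNA polymerases. MSH6 and MSH3 each pair with the same MutS protein, forming MutSα, which binds mismatches and short loops, and MutSβ, which binds larger loops. PMS2, PMS1 and MLH3 each pair with the same MutL protein. The PMS2 pair, MutLα, nicks the new strand, and EXO1 then degrades it past the error before DNA polymerase δ fills the gap. Cells without this repair accumulate length changes in single-base runs, the instability that defines a class of colorectal tumors.

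The members themselves carry such runs in their coding sequence. Sequences are shown because these are the sites at which cells without this repair can lose a further repair gene. In the canonical transcripts of GENCODE 44 on GRCh37, 4 of the 6 members held a run of 8 or more of the same base, against 5.82% of 19207 protein-coding sequences searched, and 14.8% of the 3341 that were at least as long as the shortest member. The following 27 or 28 bases of coding strand give the longest runs of each gene, with the run in capitals.
MSH6: ccggaagataCCCCCCCCttcttagagc
MSH3: tgttagggacAAAAAAAAgggcaacatt
PMS2: actggagaagAAAAAAAAgacgtgtcca
MLH3, the longer of its pair: gagaaagagAAAAAAAAAgaatctagc
MLH3, the shorter: attgcccaacAAAAAAAAttgcagaacg
PMS1: actcaactgcAAAAAAAtgtaaagatg
EXO1, first: cagaagcaggTTTTTTTgcagttcaga
EXO1, second: ctcatttctcAAAAAAAgacacacctc

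All of these runs are exonic and within the reading frame. The *MSH6* run of 8 C lies at chr2:48030640-48030647 on the plus strand, in exon 5 of 10. The *MSH3* run of 8 A lies at chr5:79970915-79970922 on the plus strand, in exon 7 of 24, and that of *PMS2*, also 8 A, at chr7:6027157-6027164 on the minus strand, in exon 11 of 15. *MLH3* held the longest run, 9 A at chr14:75514604-75514612 on the minus strand, and a run of 8 A at chr14:75514338-75514345, both in exon 2 of 13. A longest run of 9 or more was found in 1.36% of all coding sequences searched. The longest runs of *PMS1* (chr2:190682810-190682816, plus strand, exon 5 of 13) and of *EXO1* (chr1:242042052-242042058 in exon 13 and chr1:242045292-242045298 in exon 14 of 16, plus strand) had 7 bases. These are letters of the reference genome. The counts do not show whether the runs are intact in these cells.

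The libraries held between 3446922 and 10256710 counts, and the shallowest was scramble replicate 3. *SNHG15*, the targeted gene, had 290, 277 and 261 CPM (counts per library size, scaled by TMM) with scramble siRNA and 77.2, 83.1 and 87.2 CPM with *SNHG15* siRNA. In log2 terms the change was -1.74 (standard error, SE, 0.12; adjusted p = 2.62e-05, edgeR). Of the 12 colorectal epithelium markers read as a check of the cell type, 5 (*KRT19*, *KRT20*, *CDX1*, *VIL1* and *TFF3*) had 0 counts in all 6 libraries. A count of 0 allows up to 3 counts, or 0.298 to 0.905 CPM depending on the library. *EPCAM*, *CEACAM5* and *LGALS4* had at most 4 counts in any library. *KRT8*, *KRT18*, *CDX2* and *CDH1* passed the filter on low counts, with scramble means of 46.4, 23.9, 27.9 and 7.52 CPM and means after depletion of 55.4, 23.9, 25.9 and 4.43 CPM. *CDH1* was lower in all 3 siRNA libraries, as were 14.1% of all genes tested (log2 fold change -0.76, adjusted p = 0.0945, edgeR). The summed level of the 12 markers, with *KRT8* as its largest part, was 102 to 110 CPM with scramble siRNA and 106 to 117 CPM with *SNHG15* siRNA. No marker of fibroblasts, leukocytes or endothelium passed the filter, among 12 read, of which 4 had 0 counts throughout, and their sum was 0.469 to 0.796 and 0.719 to 1.52 CPM. *COL1A1* had the most, at 9 counts or fewer. The label LoVo is used as given. With several markers usual for colorectal epithelium not detected, these counts do not settle the identity of the line, and the levels given are those of the cells sequenced.

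To compare genes with one another, counts must be set against gene length. By the length of the union of annotated exons, *EXO1* had the highest level in the scramble libraries, 11.0 ± 1.58 CPM per kb (SD, n = 3), followed by *MLH3* with 2.71 ± 0.582, *PMS1* with 2.49 ± 0.103, *MSH6* with 0.538 ± 0.0744, *MSH3* with 0.205 ± 0.134 and *PMS2* with 0.142 ± 0.0529. *MLH3* and *PMS1* overlapped in this order, and so did *MSH3* and *PMS2*. The other neighbours were apart in all 3 scramble libraries.

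The union of exons is long for *MSH6*, 17722 bp against 4265 bp of its canonical transcript, and for *PMS2*, 11237 against 5093 bp. Per kb of canonical transcript, the order was *EXO1* (13.2 ± 1.90 CPM per kb, SD, n = 3), *PMS1* (4.30 ± 0.178), *MLH3* (2.90 ± 0.622), *MSH6* (2.24 ± 0.309), *PMS2* (0.312 ± 0.117) and *MSH3* (0.246 ± 0.161). Now *PMS1* lay above *MLH3* in all 6 libraries, and the *MLH3* and *MSH6* ranges overlapped. *EXO1* came first, and *PMS2* and *MSH3* shared the last places, with each of the 3 lengths tried. On the canonical scale *EXO1* stood at percentile 60.6 of 10506 protein-coding genes tested, *MSH6* at 23.6, *PMS2* at 2.31 and *MSH3* at 1.49. The percentile moved with the length too. By union of exons and by coding length, it was 67.65 and 48.79 for *EXO1* and 9.82 and 12.38 for *MSH6*. For *PMS2* it was 1.08 and 2.20, and for *MSH3* 2.45 and 0.657.

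**Figure D1:**
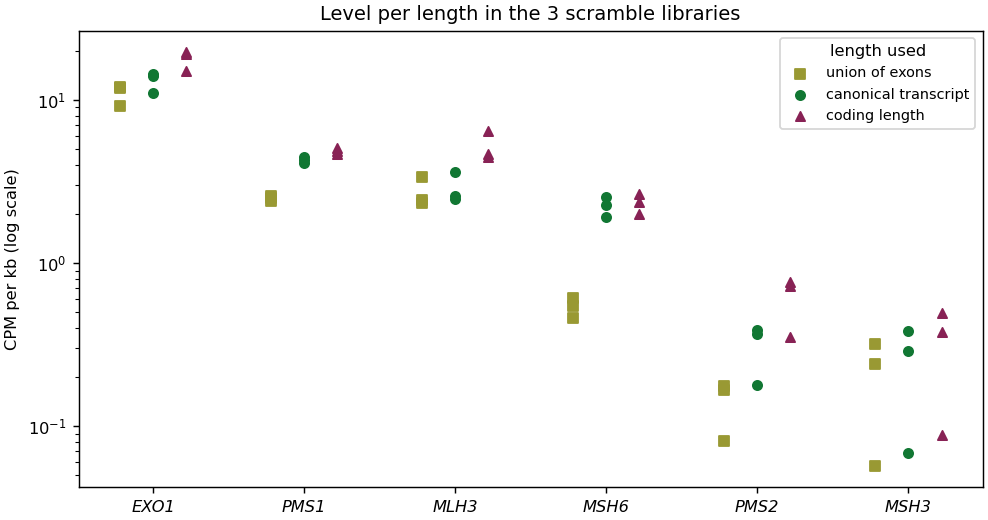
Level of each member in the 3 scramble libraries, in CPM per kb on a log axis, with 3 definitions of gene length marked by color and shape, and 1 point for each library. *EXO1* is highest and *PMS2* and *MSH3* are lowest with every length, while *MSH6* moves from 0.538 to 2.24 CPM per kb between the union of exons and the canonical transcript.

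Among the MutS subunits, *MSH6* (ENSG00000116062, chr2:47922669-48037202, plus strand) was read with 10.8, 8.16 and 9.68 CPM in scramble replicates 1 to 3 and with 11.0, 12.2 and 15.6 CPM with *SNHG15* siRNA. The groups did not overlap, although siRNA replicate 1 lay just above scramble replicate 1 and siRNA replicate 3 was the highest. Over all genes tested, the siRNA libraries were all higher in 14.7%. Its log2 fold change was 0.45 (SE 0.20, 95% interval 0.02 to 0.88), with an adjusted p of 0.203 (edgeR; 0.0417 before adjustment). The interval corresponds to 101% to 184% of the scramble level.

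*MSH3* (ENSG00000113318, chr5:79950471-80172634, plus strand) rested on 11, 17 and 1 raw counts with scramble siRNA and 8, 13 and 16 after depletion. In CPM these were 1.29, 1.69 and 0.302 against 1.11, 1.87 and 1.88, so the groups overlapped and scramble replicate 3, the shallowest library, was lowest. The fitted log2 change was 0.34 with a SE of 0.44 (adjusted p = 0.691, edgeR), and its 95% interval ran from -0.60 to 1.28. On the linear scale the interval reached from 65.8% to 242% of the scramble level.

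The balance of both MutS subunits was read within each library, where scaling plays no part. There were 8.36, 4.82 and 32.0 *MSH6* counts for each *MSH3* count with scramble siRNA and 9.88, 6.54 and 8.31 after depletion. The groups overlapped, and the difference of the log2 ratio was -0.42 (exact permutation test, two-sided, p = 0.8, where 0.1 is the smallest that 3 against 3 allow). The value of 32.0 comes from the single *MSH3* count of scramble replicate 3, and without that library the difference was 0.36.

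**Figure D2:**
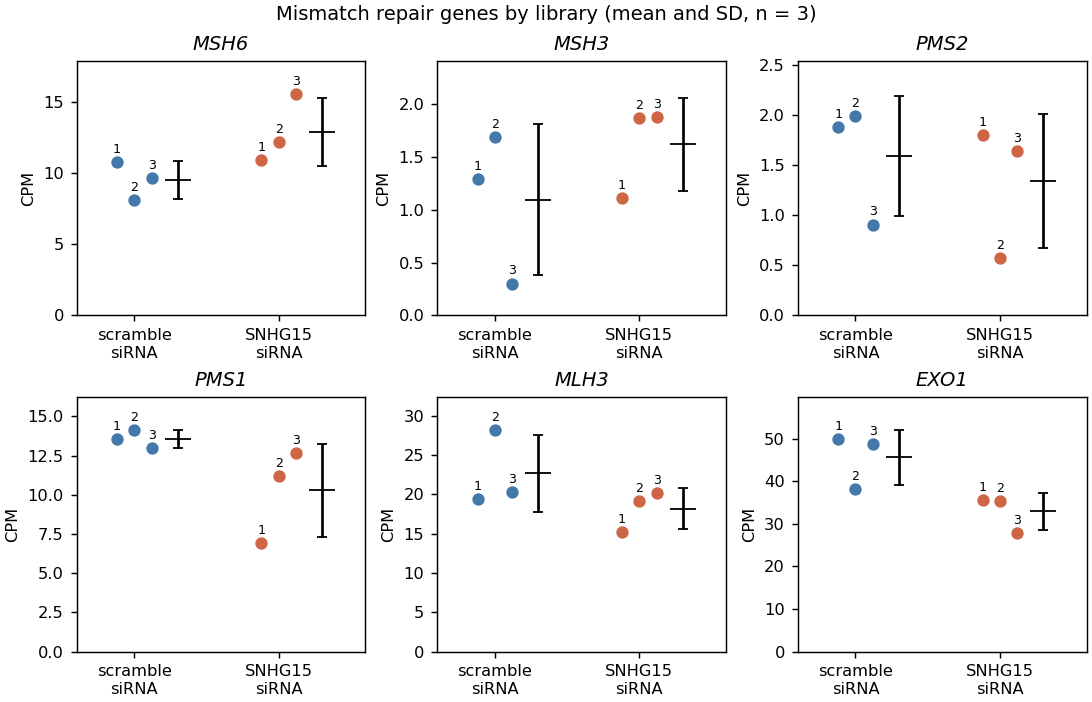
CPM of the 6 members in each library, with scramble siRNA in blue, *SNHG15* siRNA in orange, replicate numbers beside the points, and the mean and SD of 3 libraries as black bars. *EXO1* and *PMS1* lie lower and *MSH6* higher in all 3 siRNA libraries, while the groups overlap for *MSH3*, *PMS2* and *MLH3*.

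Among the MutL subunits, *PMS1* (ENSG00000064933, chr2:190648811-190742355, plus strand) had 13.6, 14.1 and 13.0 CPM with scramble siRNA and 6.93, 11.2 and 12.7 CPM after depletion. All siRNA libraries lay below all scramble libraries, but siRNA replicate 3 came close to them and replicate 1 stood far below. Over all genes tested, the siRNA libraries were all lower in 14.1%. The scramble libraries agreed closely, with a SD of 0.561 CPM, against 2.99 CPM after depletion. The log2 fold change was -0.40 (SE 0.21, 95% interval -0.86 to 0.06, adjusted p = 0.284, edgeR). Without siRNA replicate 1 it was -0.19 (adjusted p = 0.534).

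*MLH3* (ENSG00000119684, chr14:75480472-75518235, minus strand), whose partnered form acts mainly in meiotic recombination, was the most counted of the 3 MutL subunits. It had 19.5, 28.2 and 20.3 CPM with scramble siRNA and 15.2, 19.1 and 20.2 CPM after depletion. The groups overlapped, since siRNA replicate 3 lay above scramble replicate 1, and scramble replicate 2 was far above all others. In log2 terms the change was -0.33 (SE 0.18, 95% interval -0.73 to 0.07, adjusted p = 0.305, edgeR), and it was -0.11 without scramble replicate 2 (adjusted p = 0.806).

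*PMS2* (ENSG00000122512, chr7:6010556-6048761, minus strand), the subunit of MutLα, had only 16, 20 and 3 raw counts with scramble siRNA and 13, 4 and 14 after depletion. The groups overlapped at 1.87, 1.99 and 0.907 against 1.80, 0.575 and 1.64 CPM. Its log2 fold change was -0.35 (SE 0.43, 95% interval -1.28 to 0.58, adjusted p = 0.672, edgeR), and it was -0.01 without siRNA replicate 2, which had 4 counts. For each *PMS1* count there were 0.138, 0.141 and 0.0698 *PMS2* counts with scramble siRNA and 0.26, 0.0513 and 0.13 after depletion, a difference of 0.12 in the log2 ratio (exact permutation test, two-sided, p = 1, smallest possible 0.1). That difference turned to -0.22 without scramble replicate 3 and to -0.44 without siRNA replicate 1.

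The low count of *PMS2* has to be read beside its copies. *PMS2* is the parent of a family of pseudogenes on chromosome 7, and of the 5019 windows of 75 bases, the read length, in its canonical transcript, 27.5% occurred unchanged in a transcript of another annotated gene. Most of them, 1330 windows, were shared with ENSG00000290835, a long noncoding RNA model with no row in the table, and 497 with *PMS2CL*. *PMS2P1* shared only 27, or 0.538% of the windows. None of the other 5 members shared such a window with another gene on its own strand. Of 12 annotated copies in the table, 7 had counts, and together they had 71, 58 and 17 counts with scramble siRNA and 35, 49 and 64 after depletion. The *PMS2* row thus held between 7.55% (95% exact binomial interval 2.09% to 18.2%, counting error only) and 27.1% (15.3% to 41.8%) of the family's counts, and both ends came from siRNA libraries, replicates 2 and 1.

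*PMS2CL* was the most counted copy, with 34, 37 and 7 counts against 16, 20 and 26, and it did not pass the test (log2 fold change -0.35, SE 0.29, adjusted p = 0.52, edgeR). *PMS2P1*, the other copy to pass the filter on low counts, had a log2 fold change of 0.10 (SE 0.36, adjusted p = 0.895). Summed with its copies, *PMS2* had 8.0 ± 2.08 CPM with scramble siRNA and 7.81 ± 1.26 CPM after depletion (SD, n = 3 each), with overlapping groups (exact permutation test, two-sided, p = 0.9, smallest possible 0.1). How reads that fit several copies were counted is not given in the sources used here, so the split between *PMS2* and its copies is uncertain.

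**Figure D3:**
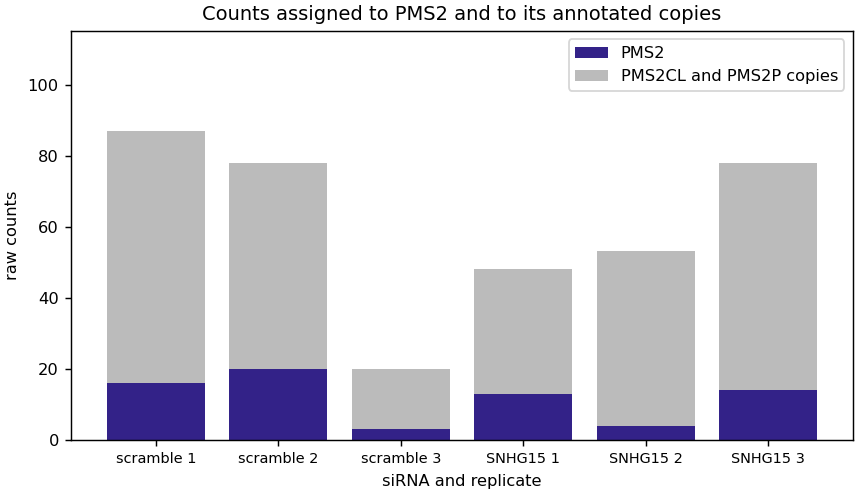
Raw counts of *PMS2* (dark) with those of its annotated copies (grey) stacked on top, in each of the 6 libraries, from 20 counts in scramble replicate 3 to 87 in scramble replicate 1. The *PMS2* row holds the smaller share in every library.

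*EXO1* (ENSG00000174371, chr1:242011269-242058450, plus strand), the exonuclease that degrades the nicked strand, was the most abundant member. It had 50.0, 38.1 and 48.7 CPM with scramble siRNA and 35.5, 35.4 and 27.8 CPM after depletion. The groups did not overlap and the siRNA libraries were lower, with scramble replicate 2 nearest to them. The siRNA libraries were all lower in 14.1% of all genes tested. The fitted log2 change was -0.47 (SE 0.16, 95% interval -0.81 to -0.12), or 72.4% of the scramble level, with an adjusted p of 0.107 (edgeR; 0.0120 before adjustment). With DESeq2 the adjusted p was also 0.107, and the adjusted p ranged from 0.0530, without a filter on low counts, to 0.311, without scramble replicate 1.

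The 6 members were then read against all genes. At an adjusted p of 0.05 from edgeR, 0 of 6 passed, and 0 of 6 with DESeq2, where 5.36% of the 12507 genes tested passed with edgeR and 5.8% of those with an adjusted p in DESeq2. At an unadjusted p of 0.05, 2 members passed, *EXO1* and *MSH6*, where 22.5% of all genes did. In 3 of 6 members the siRNA libraries lay all on one side, where 28.8% of all genes did. For *MSH6*, *PMS1* and *EXO1* the exact permutation test (two-sided) gave p = 0.1, the smallest it can give here. The median log2 fold change over the 6 members was -0.34, with 4 below 0 and 2 above, and over all genes tested it was 0.00.

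The later steps of the same repair use factors shared with DNA replication, and 4 of the 15 tested fell. Of 16 such genes, 15 were tested, 14 had a log2 fold change below 0, and the median was -0.43. *RFC1* lay above 0, at 0.22 (adjusted p = 0.491, edgeR), and *RPA1* at 0.00. Of all genes tested, 2.23% fell past the adjusted p of 0.05 and 6247 of 12507 had a log2 fold change below 0. None of this list rose past it. The 4 that fell were *LIG1*, the ligase that seals the repaired strand (log2 fold change -0.74, SE 0.19, adjusted p = 0.0438, edgeR), *PCNA*, the sliding clamp (-0.56, SE 0.12, adjusted p = 0.0191), *POLD2*, a subunit of DNA polymerase δ (-0.53, SE 0.14, adjusted p = 0.0402), and *RFC5*, a subunit of the clamp loader (-0.50, SE 0.13, adjusted p = 0.0491). The count was 0 without any 1 of the scramble libraries and without siRNA replicate 2, and it was 2 without siRNA replicate 3 and 5 without siRNA replicate 1. With upper-quartile factors, or with at least 10 counts required in every library, it was 1, *PCNA*. On average *LIG1* went from 58.6 to 34.9 CPM.

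**Figure D4:**
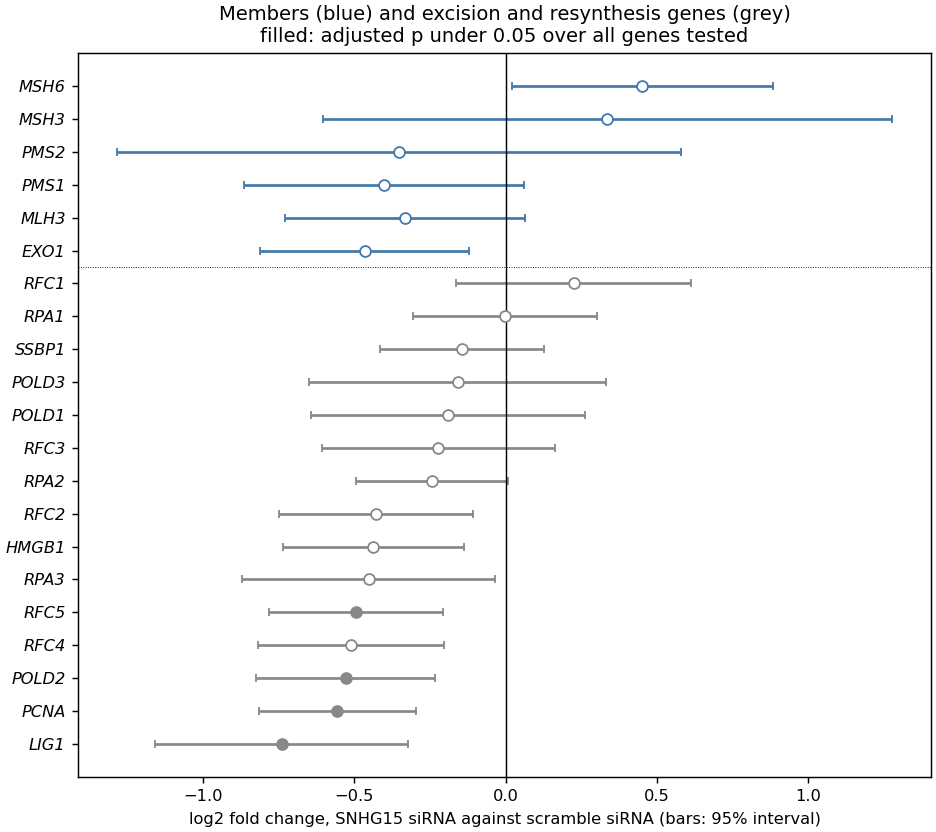
Log2 fold change of the 6 members (blue) and of the 15 tested excision and resynthesis genes (grey), with 95% intervals as bars and filled points for an adjusted p under 0.05. None of the members is filled, and *LIG1*, *PCNA*, *POLD2* and *RFC5* are.

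*EXO1* is known to rise in S phase, and genes of S phase and proliferation were read in the same libraries. Of 25 such genes 24 were in the table and tested. 22 had a log2 fold change below 0, with a median of -0.31, and 6 fell past the adjusted p of 0.05, while none rose. Of all genes tested, 2.23% fell past it, and 6247 of 12507 had a log2 fold change below 0. The 2 above 0 were *CCNE2*, a cyclin (1.18, SE 0.39, adjusted p = 0.0956, edgeR), and *TOP2A*, a topoisomerase (0.95, SE 0.30, adjusted p = 0.0791). Both were higher in all 3 siRNA libraries, as were 14.7% of all genes tested. *MKI67*, *RRM1* and *CCNE1* lay at -0.07, -0.04 and -0.03. The lowest p were those of *RRM2*, a ribonucleotide reductase subunit (-0.77, SE 0.12, adjusted p = 0.00507, edgeR), *CDC45*, part of the replicative helicase (-0.73, SE 0.13, adjusted p = 0.00761), and *TYMS*, the thymidylate synthase that fluorouracil inhibits (-0.62, SE 0.12, adjusted p = 0.0112). The count of 6 was 2 without scramble replicate 1, 3 without scramble replicate 2, 2 without scramble replicate 3 and 10 without siRNA replicate 1. The summed level of the list was 3377, 3108 and 3516 CPM with scramble siRNA and 2670, 2482 and 2357 CPM after depletion. The lowest value of *EXO1* and of the list was in siRNA replicate 3. Among the scramble libraries both were lowest in replicate 2, but *EXO1* was highest in replicate 1 and the list in replicate 3. In other assays of LoVo cells, the paper reported lower proliferation after knockdown and no significant change in cell cycle phases. The part of proliferation in the *EXO1* level was not tested.

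Other factors tied to mismatch repair gave no call. Of *SETD2*, *MCM8*, *MCM9*, *FAN1*, *HDAC6*, *USP10* and the meiotic *MSH4* and *MSH5*, 6 were tested and 0 passed with edgeR at an adjusted p of 0.05, 1 at an unadjusted p of 0.05. With DESeq2 0 passed as well. The 1 was *MCM8*, a helicase, with 27.2 CPM with scramble siRNA and 18.7 CPM after depletion (log2 fold change -0.55, SE 0.15, adjusted p = 0.0507, edgeR). It was lower in all 3 siRNA libraries, as were 14.1% of all genes tested. 1 gene of this list passed without a filter on low counts and 1 without siRNA replicate 1. The most abundant were *USP10* (76.6 and 75.7 CPM, log2 fold change -0.02) and *SETD2* (38.2 and 39.9 CPM, 0.05). *MSH4* and *MSH5* had scramble means of 0.277 and 0.140 CPM and were too low to test. Of the 10 nucleases and helicases, among them *FEN1*, which belongs to the nuclease family of *EXO1*, 0 passed with edgeR (4 at an unadjusted p of 0.05, where 22.5% of all genes did, and 0 with DESeq2). The 4 ran both ways, with log2 fold changes of 1.09 for *DNA2*, -0.62 for *MRE11*, -0.54 for *BLM* and -0.31 for *FEN1* (adjusted p of 0.104, 0.0824, 0.0577 and 0.192, edgeR), and *FEN1* was the most abundant.

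Uracil and fluorouracil in DNA are removed both by mismatch repair and by base excision repair. Of 16 base excision genes all were tested, 10 had a log2 fold change above 0, and the median was 0.04. 1 passed the adjusted p of 0.05, *NEIL1*, a glycosylase for oxidized bases, which rose from 14.9 to 24.6 CPM (log2 fold change 0.72, SE 0.15, adjusted p = 0.0177, edgeR), where 3.13% of all genes tested rose. The call was lost when any 1 of the scramble libraries was left out, and 2 genes passed without siRNA replicate 1. The glycosylases for uracil did not pass. *UNG* had a log2 fold change of -0.11 (adjusted p = 0.654, edgeR), *SMUG1* of -0.11 (0.615), *TDG* of 0.39 (0.231) and *MBD4* of 0.33 (0.23).

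Some members start beside another gene on the opposite strand. *PMS1* starts 279 bp from *ORMDL1*, and *PMS2* 125 bp from *AIMP2*. These partners stood at very different levels with scramble siRNA, where *ORMDL1* had 107 ± 4.75 CPM against 13.6 ± 0.561 of *PMS1* (SD, n = 3 each), and *AIMP2* had 3, 2 and 0 raw counts against 16, 20 and 3 of *PMS2*. *ORMDL1* did not pass the test (log2 fold change -0.10, adjusted p = 0.707, edgeR), and *AIMP2* was too low to test.

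*MSH6* overlaps *FBXO11*, which lies on the opposite strand, and exons of *FBXO11* cover 530 bp, or 12.4%, of the canonical *MSH6* transcript. Over all annotated exons of both genes the overlap was larger, 4022 bp. Library preparation kept strand, but the use of strand in counting is not given in the sources used here. Reads in these stretches could therefore be split, dropped or assigned to either gene. *FBXO11* had 11.6 ± 1.17 CPM with scramble siRNA and 12.1 ± 1.82 after depletion (SD, n = 3 each), which gave a log2 change of 0.05 (adjusted p = 0.899, edgeR). The canonical transcripts of *PMS2*, *PMS1*, *MLH3* and *EXO1* had no exons under those of another annotated gene. Over all annotated exons, *PMS1* overlaps *ORMDL1* by 96 bp. *EXO1* overlaps ENSG00000288723, a long noncoding RNA on the opposite strand with no row in the table, by 160 bp. The same uncertainty about strand holds for these stretches.

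The siRNAs can also act on other transcripts through their seed, bases 2 to 8 of the guide. Sites that pair with the seed were sought on the transcript strand of the 3′ UTRs, as ATGTTCA for siRNA 1 and CACAGCA for siRNA 2. *MLH3* held 2 sites for siRNA 1 and 1 for siRNA 2 in its 3307 bp, and *PMS2* 1 for siRNA 2, while none was found in *MSH6*, *MSH3*, *PMS1* and *EXO1*. Of 18858 3′ UTRs, 14.5% held the first and 15.7% the second motif, shares that were not matched for length. *MLH3* and *PMS2* have the longest 3′ UTRs of the members, that of *PMS2* with 2474 bp. Those without a site have 93 bp in *MSH6*, 953 in *MSH3*, 193 in *PMS1* and 339 in *EXO1*. The sites are given with the match in capitals, since they are the places where the siRNAs could pair with a member.
MLH3, siRNA 1: gaacaaagggATGTTCActgtatgcct
MLH3, siRNA 1, second site: tcagagactgATGTTCAatatcccaaa
MLH3, siRNA 2: catatcaaaaCACAGCAtacatacgtt
PMS2, siRNA 2: aagtggggtgCACAGCAggttaggggc

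On GRCh37 the *MLH3* sites lie on the minus strand at chr14:75483745-75483751, chr14:75483094-75483100 and chr14:75482974-75482980, all in exon 13, and the *PMS2* site at chr7:6011135-6011141 in exon 15. Neither gene passed the test, and the part of seed pairing was not tested.

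The profiles of the members over the 6 libraries were compared by the root mean square difference of log2 CPM, each gene centred on its own mean. *PMS1* and *MLH3* were the most alike members, at 0.209, and *MSH3* and *EXO1* the least, at 0.877. Nearest to *EXO1* among all genes tested were *ORC1*, a subunit of the origin recognition complex (0.0448), and ENSG00000135213 (0.0717), which has no entry in the annotation used. Nearest to *MSH6* were *THAP12* (0.0391) and *ATL2* (0.064), to *PMS1* *ATMIN* (0.0428) and *MED30* (0.05), and to *MLH3* *FOXK1* (0.0429) and *ITGA2* (0.0541). For *MSH3* (*TUBBP1*, 0.111, and ENSG00000272750, 0.121) and *PMS2* (ENSG00000260751, 0.177, and *CDKL1*, 0.185) the nearest genes were farther away. With 12507 genes and 6 libraries, some gene lies close to any profile.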

How the data were processed

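Libraries were made with a stranded mRNA kit and sequenced as 75 bp paired-end reads. The deposited values are raw counts per Ensembl gene, which the authors did not normalize. The submitters' processing notes list STAR, featureCounts and hg19, while the paper's methods name bowtie2 with hg19, and the settings are not given in the sources used here. The labels name TRIzol for the RNA and the paper a Maxwell kit. Groups and replicate numbers came from sample titles, and 0 columns were left unassigned.

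Counts were filtered with filterByExpr (minimum count 10, total 15), scaled by TMM, and groups were compared by the quasi-likelihood test of edgeR 4.0.16 (R 4.3.3), with Benjamini-Hochberg adjustment over 12507 genes and no block. Each standard error is the log2 fold change over the root of F. DESeq2 1.42.0, RLE and upper-quartile factors, no filter, 10 counts in every library, the replicate block and leaving out each library were alternatives. Exact permutation tests used log2 CPM with a prior count of 2, or log2 ratios of counts per exon length. For *PMS2* summed with its copies, log2 of the summed CPM was used without a prior count. The steps were tested on simulated data.

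Names, lengths and sequences came from GENCODE 44 on GRCh37, in which 8012 identifiers had no entry. 2 list genes (*UHRF1* and *PECAM1*) found no row. The members, lists and the rule for named genes were chosen with earlier results of these data known: all members, neighbours that overlap them or start within 1000 bp, list genes past the threshold (3 at most for S phase), the most abundant otherwise, and the 2 nearest profiles. Outside this rule, the uracil glycosylases, *MSH4*, *MSH5*, the markers and list genes that did not pass were named after their values were seen. Transfection used Lipofectamine, and the seeds came from the siRNA sequences in the paper. Some genes that this rule takes, and the partners shared by the MutS and by the MutL proteins, are not reported here. The labels do not describe how the replicates were cultured; the paper calls them biological.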

Additional observations from a re-analysis of the deposited data

How the results depend on the processing

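No member passed the adjusted p of 0.05 in any fit, and each of the 6 kept its direction in all fits that gave a value. *MSH3* and *PMS2* gave none with at least 10 counts in every library. Scramble replicate 3 had 1 and 3 counts of them, siRNA replicate 1 had 8 of *MSH3*, and siRNA replicate 2 had 4 of *PMS2*. Across leave-one-out fits the log2 fold change ranged from 0.29 to 0.57 for *MSH6*, from -0.58 to -0.35 for *EXO1*, from -0.59 to -0.19 for *PMS1*, from -0.45 to -0.11 for *MLH3*, from 0.11 to 0.72 for *MSH3* and from -0.60 to -0.01 for *PMS2*. The count of members passing stayed at 0 throughout.

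The number of genes called changed was 671, 1312 without a filter on low counts, and from 139 to 812 with single libraries left out. The excision and resynthesis list had 4 calls, 1 with upper-quartile factors, 7 without a filter, 1 with at least 10 counts in every library and from 0 to 5 with single libraries left out. Without a filter, 1 of the other mismatch repair factors, 2 of the nucleases and helicases, 2 of the base excision genes and 11 of the S phase genes passed. With single libraries left out these counts ranged from 0 to 1, from 0 to 1, from 0 to 2 and from 2 to 10. The difference of the *MSH6* to *MSH3* log2 ratio ranged from -1.01 to 0.36, and that of *PMS2* to *PMS1* from -0.44 to 0.73.

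The level per kb moved with the length used. From canonical transcripts it was 2.24 for *MSH6*, 0.312 for *PMS2*, 4.30 for *PMS1* and 13.2 for *EXO1*, and from coding length 2.34, 0.615, 4.85 and 18.0, with 5.20 for *MLH3*. The *PMS2* row had 1.59 CPM with scramble siRNA, and its sum with the copies 8.0 CPM, which is a level of the family and not of *PMS2*.

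Same-numbered libraries of both groups deviated with correlations of -0.07, 0.155 and -0.042, and differently numbered ones with -0.166 to 0.145. No strong shared deviation was thus seen between same-numbered libraries. With 3 libraries in each group, these values cannot tell whether same-numbered libraries were handled together. With the replicate block the excision and resynthesis list had 2 calls, the log2 fold change of *EXO1* was -0.46 and that of *MSH6* 0.42. Depth limits *MSH3* and *PMS2* most, and p-values measure only the spread between these libraries.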
